A study of Mus musculus with 3 samples.

Results

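Liver sinusoidal endothelial cells were described in 3 Drop-seq libraries of mouse liver. They were selected on their transcripts: a barcode with at least 200 detected genes was taken as a sinusoidal cell when at least 3 of 7 genes (Clec4g, Stab2, Fcgr2b, Kdr, Lyve1, Ptprb and Dnase1l3) had at least 1 unique molecular identifier (UMI), and when it held fewer than 2 of the Kupffer cell genes Clec4f, Vsig4, Cd5l and Marco and fewer than 2 of the large-vessel genes Vwf, Cldn5, Cd34 and Rspo3. This gave 3373 of 25263 cells. Drop-seq captures single cells in droplets with barcoded beads and counts 1 UMI per captured RNA molecule. The livers came from adult mice, C57BL/6 by the labels and C57BL/6J by the study's methods, and no genetic change is named for them. Tissue was cut out with a 4 mm punch and digested, and tissue of 3 livers was pooled into 1 library per condition. Irreversible electroporation (IRE), in which short electric pulses kill the cells of a small area, had been applied 1 day or 7 days before sampling, with 8 pulses of 50 ms at intervals of 1 s and, by the labels, at 75 V, where the study's methods give a lower voltage. The control livers had sham surgery with tissue taken after 1 day by their label, and the equivalent area without injury was used. Control, 1 day post-injury (p.i.) and 7 days p.i. name the 3 libraries as labelled.

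Sinusoidal endothelial cells line the capillaries of the liver. They are perforated by open pores, lack a continuous basement membrane, and clear waste macromolecules from the blood through scavenger receptors such as those encoded by Stab1, Stab2 and Mrc1. They differ along the blood's path from the portal to the central vein, where endothelial cells release Wnt ligands to the neighbouring hepatocytes.

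Each condition was 1 library of pooled livers, so that no test across animals was possible. All intervals are 95% intervals that cover counting error only. Levels are UMIs summed over the sinusoidal cells of a library per 1000000 of their UMIs (CPM). Ratios are ratios of CPM between libraries.

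Sinusoidal cells were 1166 of 10386 control cells (11.2%, interval 10.6 to 11.8), 2150 of 9253 cells at 1 day p.i. (23.2%, 22.4 to 24.1) and 57 of 5624 cells after 7 days (1.01%, 0.769 to 1.31). The share was thus highest at 1 day p.i. and lowest after 7 days. A share of captured cells depends on all other cells of the library, and numbers in the tissue were not measured. Their medians of 559, 519 and 516 UMIs were close, and their UMIs summed to 790521, 1292940 and 32889, so that the values at 7 days p.i. rest on the fewest counts.

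The libraries differed in ways that touch these shares. Barcodes with fewer than 200 genes (low-gene barcodes) were used as a measure of background RNA. They hold RNA that entered droplets without its cell and may also hold cells with little RNA, and these cannot be told apart here. In these barcodes the 7 gate genes took 1380 CPM in control, 4361 CPM at 1 day p.i. and 446 CPM after 7 days, against 11418, 11360 and 11736 CPM in the sinusoidal cells. Lymphocytes, with at least 3 markers of T and NK cells or at least 3 of B cells, were taken as cells outside the endothelium. Of these, 20 of 780 in control (2.56%, interval 1.57 to 3.93) reached 3 of the 7 genes. At 1 day p.i. 112 of 448 did (interval 21.1% to 29.3%), and after 7 days 1 of 172 (0.581%, 0.0147 to 3.20). Their median depths were 673.5, 546 and 464 UMIs. Whether lymphocytes express any of the 7 genes themselves was not tested. Of all cells, 12.3%, 34.1% and 1.17% reached 3 of the 7 genes before the limits on Kupffer and large-vessel genes were set. How many of the 2150 cells met the minimum through background RNA was not tested. When 5 of the 7 genes were required, their shares were 4.14%, 6.41% and 0.356% in control, at 1 day and at 7 days p.i., in the same order. Cells with 3 of the 7 genes that were left out for their Kupffer cell genes numbered 106, 992 and 9. The control library also held transcripts of Gpnmb and Trem2, genes of macrophages that take up lipid or debris, at 465 and 224 CPM in its other cells, against 3.74 and 15.4 CPM at 1 day p.i. Whether the tissues matched the labels was not tested. Barcodes that occurred in a further library numbered 233 between control and 1 day p.i., 202 between control and 7 days p.i. and 738 between 1 day and 7 days p.i. None was a sinusoidal cell in both, and without them the shares were 11.3%, 23.4% and 1.00%.

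The name of the cells was checked with 17 sinusoidal genes that the gate did not use, among them Stab1, Mrc1, Gpr182, Oit3, Cd36, F8, Ehd3, Maf and Bmp2. Together they took 12332 CPM in control sinusoidal cells, 10610 CPM at 1 day p.i. and 11767 CPM after 7 days. In all other cells they took 1915, 4794 and 897 CPM. All 17 were detected in control and at 1 day p.i. At 7 days p.i. 16 were detected, and Gata4, the transcription factor of sinusoidal identity, was at 0 UMIs among 32889. A floor of 3 counts is 91.2 CPM there, above its control level of 30.4 CPM, so that the libraries could not be separated. As the gate and these genes were read in the same cells, this is a description. In cells within the limits on Kupffer and large-vessel genes, 2 of the 7 genes, just outside the threshold, went with 4602, 5706 and 2899 CPM in the 3 libraries, and 3 of the 7, just inside it, with 10096, 8282 and 8742 CPM. At 1 day p.i. the step at the threshold was thus the smallest, and cells with 2 genes were close to the 5461 CPM of barcodes with fewer than 200 genes. Across the threshold in genes, control barcodes with 180 to below 200 genes and those with 200 to below 220 genes that passed the rest of the gate held 13835 and 13511 CPM. At 1 day p.i. they held 9956 and 9541 CPM, on 178 and 206 barcodes, and at 7 days p.i. 20073 and 16798 CPM, on 5 and 4. In control and at 1 day p.i. such barcodes just below the threshold were thus close to those just above it.

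**Figure D1:**
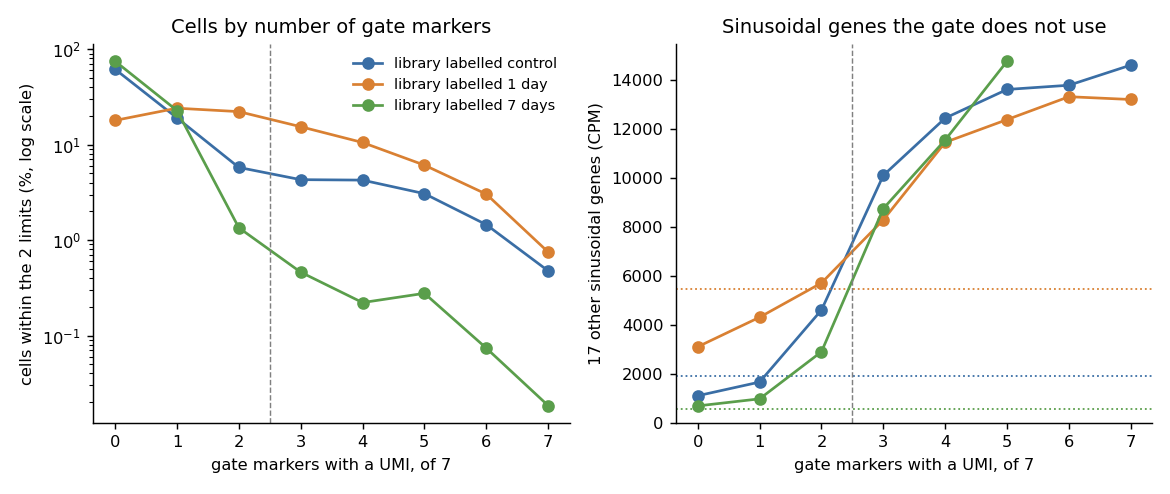
Left, share of cells (percent, log scale) by the number of the 7 gate genes with a UMI, within the limits on Kupffer and large-vessel genes; the dashed line is the threshold. Right, summed level (CPM) of 17 sinusoidal genes that the gate did not use, for groups of at least 10 cells, with dotted lines for barcodes under 200 genes. Control goes from 4602 to 10096 CPM between 2 and 3 genes, and 1 day p.i. from 5706 to 8282 CPM.

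Of the gate genes, Ptprb, which encodes an endothelial receptor phosphatase, had the highest level in control, at 3006 CPM, followed by the lectin gene Clec4g at 2239 CPM. Clec4g stood at 2627 CPM at 1 day p.i. and 2645 CPM after 7 days, and these 2 intervals overlapped. Lyve1, the gene of a hyaluronan receptor, stood at 1443 CPM in control, 753 CPM at 1 day p.i. and 1368 CPM after 7 days, so that 1 day p.i. lay below both others. Dnase1l3, encoding a secreted nuclease, stood at 1388, 2054 and 1155 CPM, with 1 day p.i. above both others. Fcgr2b, encoding the inhibitory receptor for immune complexes, stood at 951, 1121 and 1976 CPM. The VEGF receptor gene Kdr stood at 1498, 1309 and 1733 CPM and the scavenger receptor gene Stab2 at 893, 841 and 669 CPM. These 7 genes chose the cells, so that their levels are a description.

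Beyond the gate, the scavenger receptor gene Stab1 stood at 726 CPM in control, 418 CPM at 1 day p.i. and 304 CPM after 7 days. Its ratio to control was 0.575 (interval 0.510 to 0.648) at 1 day p.i. and 0.419 (0.200 to 0.776) after 7 days, on 10 UMIs. Mrc1, the gene of the mannose receptor, stood at 1523, 1439 and 912 CPM, and F8, the gene of coagulation factor VIII, at 878, 611 and 456 CPM. Cd36, the gene of a fatty acid transporter, went the other way between the times, with 789, 476 and 1277 CPM. Of the 17 genes, none reached 2-fold or 0.5-fold of control at 1 day p.i., with a median ratio of 0.866. Of them 13 could be compared at 7 days p.i., Stab1 alone was at most 0.5-fold of control, with 0.593 where 5 of 7 gate genes were required, and the median was 0.954. Without mitochondrial genes in the CPM, 3 of the 13 were at most 0.5-fold (Mrc1 at 0.481 and F8 at 0.417 among them), with a median of 0.765, and with ratios centred on their median 2 of 13 were, with a median of 0.848. The ratio of Mrc1 was 0.599 as reported, 0.959 with 5 of 7 gate genes and 1.41 on the 8 cells left without markers of another class. Barcodes with fewer than 200 genes held 120, 233 and 76.9 CPM of Stab1 and 258, 838 and 62.5 CPM of Mrc1, so that these barcodes were nearest to the cells at 1 day p.i.

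**Figure D2:**
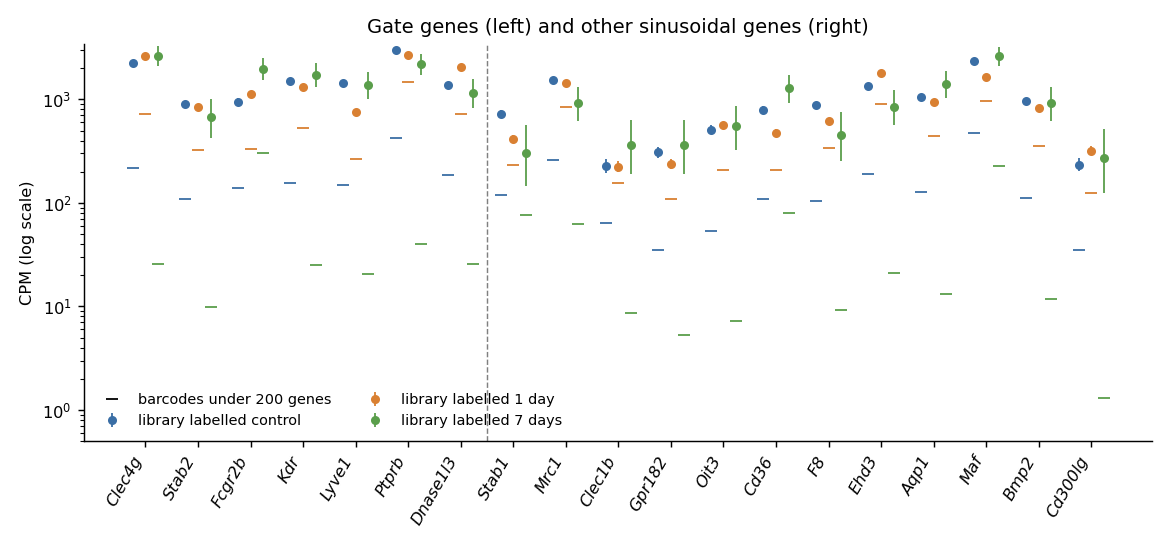
Level (CPM, log scale) of the 7 gate genes, left of the dashed line, and of 12 further sinusoidal genes in the sinusoidal cells of each library, with 95% intervals for counting error; dashes mark barcodes under 200 genes. The dashes are highest at 1 day p.i. for each gene, and Stab1 lies at 726, 418 and 304 CPM.

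Against control, sinusoidal cells at 1 day p.i. had lower levels of Cxcl9, a chemokine of activated T cells that interferon gamma induces, of the interferon-induced GTPase genes Iigp1 and Gbp7, of the endothelial tip cell gene Esm1 and of the matricellular gene Ctgf. They had higher levels of the growth factor binding protein gene Igfbp7 and of the Wnt ligand gene Wnt2. Low-gene barcodes also held more of both genes at 1 day p.i. than in control. Hepatocyte transcripts led all genes with higher levels, at the level found in low-gene barcodes. Of 5537 genes with at least 50 UMIs over both libraries and at least 10 expected in the smaller, 411 were at least 2-fold higher at 1 day p.i. (7.42%) and 126 were at most 0.5-fold of control (2.28%), with a median ratio of 0.990 over all of them.

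The hepatocyte genes came first by size of the ratio. Car3, the gene of a carbonic anhydrase of hepatocytes, had 0 UMIs in control and 405 at 1 day p.i. With control set to a floor of 3 counts per library its ratio was 82.5, and the lower bound of the interval at 0 counts was 66.8. Pcbd1 was likewise at 0 in control, and Cyp3a11, Serpina1a, Mat1a, Serpina3k, Rbp4 and Bhmt had ratios of 27.8 to 146. These are genes of drug oxidation, plasma proteins and methionine metabolism. Car3 stood at 313 CPM in the sinusoidal cells at 1 day p.i. and at 480 CPM in barcodes with fewer than 200 genes. The 14 hepatocyte marker genes fixed for this purpose took 0.113% of the UMIs of sinusoidal cells in control, 2.22% at 1 day p.i. and 0.0547% after 7 days, against 0.137%, 2.28% and 0.187% in those barcodes. Hepatocyte transcripts in the sinusoidal cells were thus no more abundant than in low-gene barcodes in any of the 3 libraries.

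Further genes were therefore named by a second criterion, chosen after the data had been seen, that a gene be at least 2-fold above low-gene barcodes in the library where it was higher. A gene meets it through the library where it is high, and low-gene barcodes held more sinusoidal RNA at 1 day p.i., so that it served to choose names and no count was drawn from it.

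Cxcl9 had 942 UMIs in control (1192 CPM), 310 at 1 day p.i. (240 CPM) and 5 after 7 days (152 CPM). Both times after injury lay below control, without overlap of the intervals, and could not be separated from each other. The ratio was 0.201 (0.176 to 0.229) at 1 day p.i. and 0.128 (0.0413 to 0.299) after 7 days. In control, Cxcl9 was found in 476 of 1166 sinusoidal cells and stood at 129 CPM in Kupffer cells, 53.1 CPM in large-vessel endothelial cells, 62.3 CPM in lymphocytes and 187 CPM in barcodes with fewer than 200 genes. With 300 UMIs drawn from each cell, 26.2% of control sinusoidal cells held a Cxcl9 UMI, against 1.71% of lymphocytes. At 1 day p.i. these shares were 6.51% and 1.51%. When 5 of 7 gate genes were required, the ratio at 1 day p.i. was 0.254.

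Iigp1 had 666 UMIs in control (842 CPM), 375 at 1 day p.i. (290 CPM) and 16 after 7 days (486 CPM). Control was the highest, 1 day p.i. was the lowest, and the interval at 7 days p.i. reached that of 1 day p.i. and that of control. The ratio at 1 day p.i. was 0.344 (0.303 to 0.391). Gbp7 had 439, 277 and 16 UMIs, or 555, 214 and 486 CPM, and its ratio at 1 day p.i. was 0.386 (0.331 to 0.449). Iigp1 and Gbp7 were at 195 and 193 CPM in barcodes with fewer than 200 genes at 1 day p.i., so that the level of Gbp7 in the cells was close to that of these barcodes there. Kupffer cells showed the same order, with Iigp1 at 407 CPM in control and 246 CPM at 1 day p.i., and Gbp7 at 481 and 204 CPM.

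All 25 genes of a list of interferon-induced genes could be compared at 1 day p.i. Of these, 5 were at most 0.5-fold of control (Iigp1, Gbp4, Igtp, Irgm1 and Ifi47, all coding for interferon-induced GTPases or related proteins), none was at least 2-fold higher, 6 had ratios over 1, and the median was 0.727, beside 2.28% at most 0.5-fold and a median of 0.990 over all genes. With 5 of 7 gate genes, 3 of 21 were at most 0.5-fold. Irf7, the gene of a transcription factor of the type I interferon response, went the other way, from 65.8 to 131 CPM with a ratio of 2.00 (1.46 to 2.78) that lay just under 2-fold and passed it without mitochondrial genes, and Isg15 stood at 83.5 and 55.7 CPM. At 7 days p.i. 5 genes could be compared, with none at either limit and a median of 1.48, or 0.921 over 2 genes with 5 of 7 gate genes. Without mitochondrial genes, 1 of the 5 was at most 0.5-fold. Ifitm3, which encodes an antiviral membrane protein, stood at 1485 CPM in control and 2493 CPM at 7 days p.i., with a ratio of 1.68 (1.33 to 2.10). The interferon-induced genes thus did not move as 1 group.

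Promoters of Gbp7, which was not on the list, and of Igtp and Irgm1 are shown because the levels of these GTPase genes were lower and their sequences hold a motif that interferon-regulated factors are known to bind. The core of the interferon-stimulated response element (GAAA, any 2 bases, GAAA) was searched on both strands in the 250 bases before the gene start in RefSeq (GRCm38.p6). It lies in 978 of 32851 promoters (2.98%). Of the 25 listed genes 19 matched an entry and 11 of these held it (57.9%). A listed gene counted if any of its entries held the motif, whereas the share over all promoters counts each entry. These shares are thus not of the same unit. Of the 5 with at most 0.5-fold, 3 matched (Igtp, Irgm1 and Ifi47) and Igtp and Irgm1 held it. A match is a description of letters and not a bound site. The motif is in capitals, and each sequence reads 5′ to 3′ on the gene's strand. Gbp7 lies on the plus strand with bases chr3:142530086-142530335, where the motif starts 53 bases before the gene start.
Gbp7: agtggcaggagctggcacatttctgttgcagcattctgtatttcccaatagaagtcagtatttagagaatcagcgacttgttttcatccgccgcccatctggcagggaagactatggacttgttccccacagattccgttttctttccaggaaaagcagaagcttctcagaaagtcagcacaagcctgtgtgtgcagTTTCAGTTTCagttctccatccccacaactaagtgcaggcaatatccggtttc
Igtp lies on the plus strand with bases chr11:58199306-58199555, and its motif starts 34 bases before the gene start.
Igtp: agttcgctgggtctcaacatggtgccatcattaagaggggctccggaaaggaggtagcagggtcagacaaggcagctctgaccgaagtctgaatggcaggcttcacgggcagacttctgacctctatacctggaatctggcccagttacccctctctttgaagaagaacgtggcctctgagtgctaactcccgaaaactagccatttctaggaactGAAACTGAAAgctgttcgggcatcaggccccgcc
Irgm1 lies on the minus strand with bases chr11:48871421-48871670, and holds 2 overlapping matches, which start 30 and 24 bases before the gene start.
Irgm1: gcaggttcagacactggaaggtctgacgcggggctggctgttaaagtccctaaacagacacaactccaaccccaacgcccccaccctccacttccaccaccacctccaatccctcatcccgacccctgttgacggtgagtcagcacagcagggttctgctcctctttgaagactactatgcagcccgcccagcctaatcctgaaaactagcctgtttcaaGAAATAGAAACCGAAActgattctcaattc
The window of Cxcl9 held no match to these letters.

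Esm1, which encodes a secreted proteoglycan core protein of endothelial tip cells, had 134 UMIs in control (170 CPM), 10 at 1 day p.i. (7.73 CPM) and 1 after 7 days (30.4 CPM). The ratio at 1 day p.i. was 0.0456 (0.0214 to 0.0865). Its control UMIs came from 97 cells with at most 5 in a cell. Ctgf, the gene of a matricellular protein, had 123, 25 and 1 UMIs, or 156, 19.3 and 30.4 CPM, and its ratio at 1 day p.i. was 0.124 (0.0774 to 0.192). For both genes control lay above 1 day p.i., and control and 7 days p.i. could not be separated, as 1 UMI allows up to 169 CPM. In control, barcodes with fewer than 200 genes held 18.8 CPM of Esm1 and 15.4 CPM of Ctgf. The 43 large-vessel endothelial cells of the control library held 230 CPM of Ctgf and 1 UMI of Esm1. In control 29 sinusoidal cells held a UMI of both genes, where the product of the shares of cells gives 7.82. Thinned to 300 UMIs, 7 cells held both, against 2.35 by the product.

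All 15 of 23 genes of the basement membrane and matrix that could be compared had ratios under 1 at 1 day p.i., with a median of 0.655, and 4 were at most 0.5-fold of control, beside a median of 0.990 and 2.28% over all genes. These were Ctgf, the collagen chaperone gene Serpinh1, the membrane metalloproteinase gene Mmp14 and the inhibitor gene Timp2. Sparc, encoding a matricellular protein, stood at 1834 CPM in control, 927 CPM at 1 day p.i. and 2159 CPM after 7 days. The collagen IV gene Col4a1 stood at 578, 291 and 486 CPM. For both, 1 day p.i. had the lowest level and 7 days p.i. was near control. For Col4a1, the interval at 7 days p.i. also reached that of 1 day p.i. With mitochondrial genes left out of the CPM, or ratios centred on their median, 1 of the 15 ratios came to lie over 1. Mesenchymal marker genes took 906 CPM of control sinusoidal cells, 123 CPM at 1 day p.i. and 213 CPM after 7 days, and 10 of 11 were at 0 at 7 days p.i. Their part in the result was not tested. With 5 of 7 gate genes, 2 of 14 matrix genes were at most 0.5-fold, with a median of 0.658.

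Other genes with lower levels at 1 day p.i. under the second criterion were the protocadherin gene Pcdh17, with 342, 92.0 and 152 CPM in the 3 libraries, the activin subunit gene Inhbb, with 108, 27.1 and 122 CPM, and Mcam, encoding an endothelial adhesion molecule, with 110, 37.9 and 182 CPM. For Inhbb and Mcam, control and 7 days p.i. could not be separated. Clca1, Abcc9, Armcx4, Aebp1, Galnt15, Ctla2a, Wbp5, Bcl6b, Twist1, Itgb3 and the thrombin receptor gene F2r had ratios of 0.0873 to 0.408 at 1 day p.i. Gpnmb, Mmp12, Trem2, Camp and Saa3 also led the genes with lower levels, and these are genes of macrophages, of neutrophils and of the acute phase. In control, 128 UMIs of Mmp12 came from 26 cells with 44 in 1 cell, and 57 UMIs of Camp came from 9 cells with 33 in 1 cell, so that single barcodes carried much of these values.

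Igfbp7 had 1790 UMIs in control (2264 CPM), 4195 at 1 day p.i. (3245 CPM) and 120 after 7 days (3649 CPM). Both times lay above control, with ratios of 1.43 (1.36 to 1.52) and 1.61 (1.33 to 1.94). Barcodes with fewer than 200 genes held 280 CPM of Igfbp7 in control and 1158 CPM at 1 day p.i. With 5 of 7 gate genes the ratio at 1 day p.i. was 1.65. Without mitochondrial genes, the ratio at 7 days p.i. was 1.29. Wnt2, the Wnt ligand of endothelium near the central vein, had 55 UMIs in control (69.6 CPM), 160 at 1 day p.i. (124 CPM) and 0 after 7 days. The ratio at 1 day p.i. was 1.78 (1.30 to 2.46). At 7 days p.i. a floor of 3 counts is 91.2 CPM, above the control level, so that control and 7 days p.i. could not be separated. Plvap, encoding a protein of the diaphragms of endothelial openings, stood at 82.2, 130 and 365 CPM, with a ratio of 1.58 (1.18 to 2.14) at 1 day p.i. and 12 UMIs after 7 days. Id3, a target gene of BMP signalling, had a ratio of 1.30 (1.17 to 1.44), and Tinagl1, Cd300lg, Tspan7, Ppap2a, Slc9a3r2, Aass, Gja4, Pdlim1 and Sepp1 had ratios of 1.13 to 1.71. The ratio of Gja4 was 1.71, but 1.00 in cells thinned to 300 UMIs and 3.13 in cells with at most 20% mitochondrial UMIs, and that of Pdlim1 was 1.45, but 0.925 on the 64 cells left at 1 day p.i. without markers of another class. Dapk2, Cxx1c, Cxx1b, Vps53 and Ndufaf3 had ratios over 2, each on 10 to 18 control UMIs, and Mesdc1 and Ly96 had ratios of 1.88 and 1.75. In low-gene barcodes the genes named here as higher, except Ndufaf3, were also higher at 1 day p.i. than in control. There Id3 went from 137 to 421 CPM, Plvap from 15.9 to 55.4 CPM and Sepp1 from 958 to 3590 CPM. The part of this background in the ratios was not tested.

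**Figure D3:**
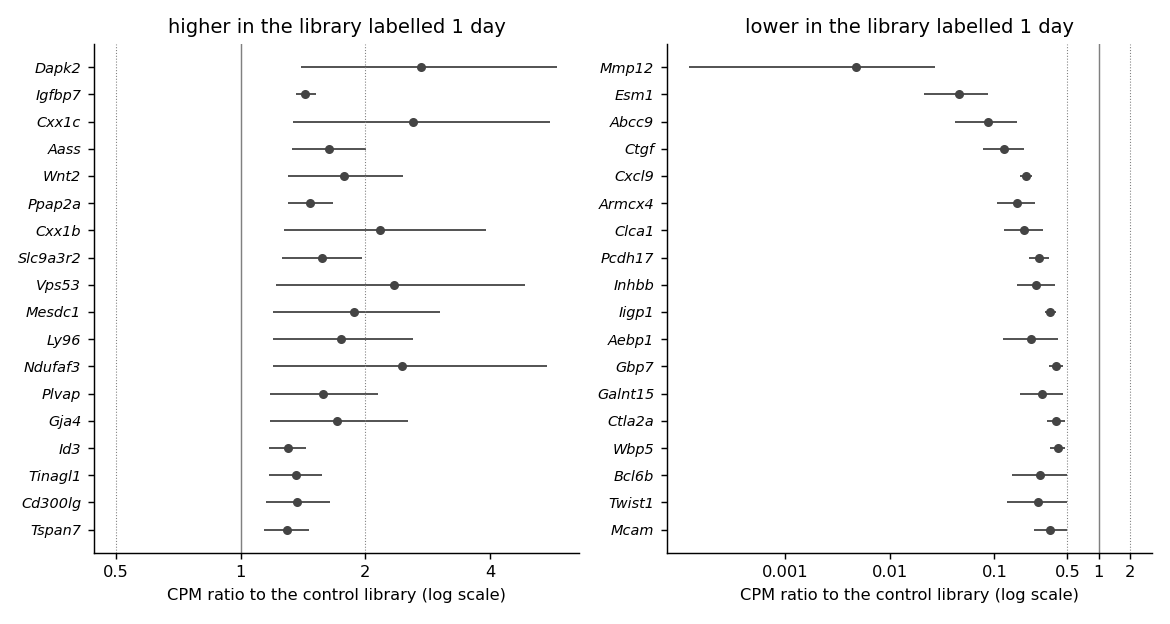
Ratio of CPM at 1 day p.i. to control (log scale) in sinusoidal cells with 95% intervals for counting error, for the first 18 genes with higher and the first 18 with lower levels whose interval was farthest from 1 among genes at least 2-fold above barcodes under 200 genes. Cxcl9 lies at 0.201, Esm1 at 0.0456 and Igfbp7 at 1.43; dotted lines mark 0.5 and 2.

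At 7 days p.i. the 57 sinusoidal cells had higher levels of Fabp4, encoding a fatty acid binding protein, of Igfbp7, of the junction gene Pecam1 and of the scavenger receptor gene Msr1 than control, and lower levels of Cxcl9, Stab1 and all 4 comparable genes of MHC class II. Of 404 genes that could be compared, 30 were at least 2-fold higher (7.43%) and 24 at most 0.5-fold of control (5.94%). Mitochondrial genes took 22.8% of the UMIs of sinusoidal cells in control, 23.6% at 1 day p.i. and 3.82% after 7 days, and the median ratio over all genes was 1.12. Without mitochondrial genes in the CPM it was 0.912, with 12 genes at least 2-fold higher and 40 at most 0.5-fold.

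Fabp4 had 824 UMIs in control (1042 CPM), 857 at 1 day p.i. (663 CPM) and 85 after 7 days (2584 CPM). The 3 intervals did not overlap, and 7 days p.i. was the highest. The ratio was 0.636 (0.577 to 0.701) at 1 day p.i. and 2.48 (1.96 to 3.10) after 7 days, or 1.99 without mitochondrial genes. Barcodes with fewer than 200 genes held 36.2 CPM at 7 days p.i., 71.5-fold less than the cells, and 41 of the 57 cells held a UMI, with at most 8 in a cell. Control large-vessel endothelial cells held 3308 CPM of Fabp4, and no large-vessel cell was found at 7 days p.i. Msr1 stood at 361 CPM in control, 343 CPM at 1 day p.i. and 791 CPM after 7 days, where Kupffer cells held 1098 CPM and low-gene barcodes 237 CPM. Its ratio at 7 days p.i. was 2.19 (1.41 to 3.28), or 1.76 without mitochondrial genes. Pecam1 stood at 371, 306 and 760 CPM, with a ratio of 2.05 (1.31 to 3.09) at 7 days p.i. and 1.44 with 5 of 7 gate genes, or 1.65 without mitochondrial genes. Ctla2a, encoding a protease inhibitor of the cathepsin L type, stood at 323, 125 and 821 CPM, the lowest at 1 day p.i. and the highest after 7 days.

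The class II genes H2-Ab1, H2-Eb1, H2-Aa and Cd74, which present peptides to helper T cells, were all at most 0.5-fold of control at 7 days p.i. H2-Ab1 had 812 UMIs in control (1027 CPM), 1201 at 1 day p.i. (929 CPM) and 4 after 7 days (122 CPM). The ratio at 7 days p.i. was 0.118 (0.0322 to 0.304), and those of the other 3 genes were 0.0657 to 0.373. In control, barcodes with fewer than 200 genes held 1481 CPM of H2-Ab1, above the sinusoidal cells, and Kupffer cells held 3605 CPM. At 7 days p.i. low-gene barcodes held 582 CPM of H2-Ab1, and the other 3 genes were also lower in them than in control. The part of this background in the ratios was not tested. The whole list took 0.255% of UMIs in control, 0.270% at 1 day p.i. and 0.0426% after 7 days. The class II level of control sinusoidal cells was thus no higher than that of low-gene barcodes.

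Other genes with lower levels at 7 days p.i. rest on few UMIs. Nfib, the gene of a transcription factor, and Phldb2, the gene of a protein of the cell cortex, had 2 UMIs each at 7 days p.i. and ratios of 0.182 and 0.164. Apoe, Ctss and Cd74 are also abundant in macrophages, and Apoe stood at 6698 CPM in control cells and 4564 CPM in control barcodes with fewer than 200 genes. Ehd3, Sdpr, Nrp1, Sepp1, Mrc1, F8, Tmem2, Atrx, Sh3bp5 and Iigp1 had ratios of 0.376 to 0.862 with intervals under 1, and the intervals of Pcdh17, Gpr116, Ppap2b, Clec14a, Smc6 and Tcf4 included 1. With 5 of 7 gate genes the ratio of Sepp1 was 1.20, from 0.862, and that of Tcf4 was 1.07, from 0.618.

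Most of the leading genes with higher levels were more abundant in low-gene barcodes than in the cells. Srgn, the gene of a granule proteoglycan, stood at 473 CPM in control and 3953 CPM at 7 days p.i., where barcodes with fewer than 200 genes held 13506 CPM. The same order held for Fth1, Ftl1, Fcer1g, Tyrobp, Anxa2, Eif1, Ubb and Spp1. The ratio of Anxa2 was 2.88, but 0.893 with 5 of 7 gate genes. Of 77 UMIs of Spp1 at 7 days p.i., 64 came from 1 cell. Neutrophil marker genes took 2767 CPM of control sinusoidal cells, 593 CPM at 1 day p.i. and 16814 CPM after 7 days, where barcodes with fewer than 200 genes held 99331 CPM and all other cells 43613 CPM. At least 2 of the 8 neutrophil markers were found in 49 of the 57 cells. Their part in the results at 7 days p.i. was not tested.

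**Figure D4:**
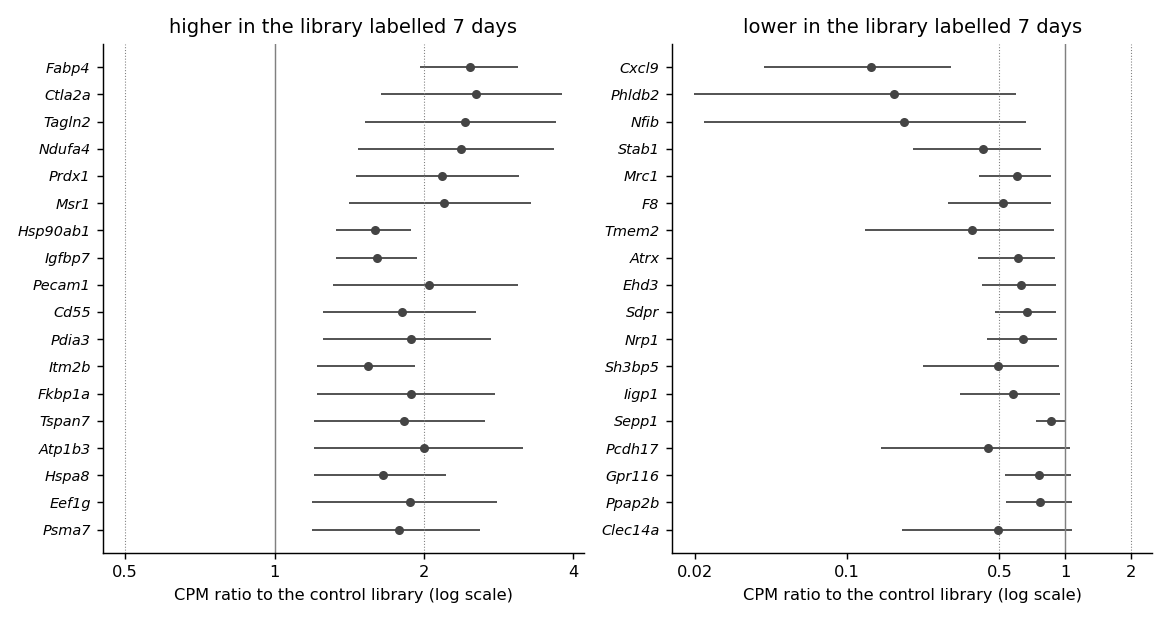
Ratio of CPM at 7 days p.i. to control (log scale) in sinusoidal cells with 95% intervals for counting error, for the first 18 genes with higher and the first 18 with lower levels chosen as for 1 day p.i. Fabp4 lies at 2.48 and Cxcl9 at 0.128, and the intervals are wide because 57 cells hold 32889 UMIs.

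Among the further genes named by the second criterion at 7 days p.i., the chaperone genes Hsp90ab1, Hspa8 and Pdia3 and the redox gene Prdx1 had ratios of 1.59 to 2.17. The ratio of Pdia3 was 1.88, but 0.868 with 5 of 7 gate genes and 0.976 in cells thinned to 300 UMIs. That of Hsp90ab1 was 1.59, but 0.768 on the 8 cells left without markers of another class. All 8 heat shock chaperone genes that could be compared had ratios over 1, with none at 2-fold and a median of 1.46, beside 1.12 over all genes. Without mitochondrial genes or with centred ratios, 7 of 8 were over 1. At 1 day p.i. 3 of 15 were over 1, with a median of 0.868. Tagln2, Ndufa4, Cd55, Itm2b, Fkbp1a, Tspan7, Atp1b3, Eef1g, Psma7 and Tacc1 had ratios of 1.54 to 2.42, and that of Psma7 was 1.78, but 0.921 in thinned cells. Of the actin and cytoskeleton genes, 12 of 14 had ratios over 1 at 7 days p.i., with a median of 1.46. Pfn1, Tagln2 and S100a6 were at least 2-fold higher, beside 7.43% and a median of 1.12 over all genes. Without mitochondrial genes these counts were 9 of 14 and none at 2-fold. At 1 day p.i. 5 of 26 were over 1, with a median of 0.791, beside 0.990 over all genes. Flna, S100a6, Anxa1 and Anxa3 were at most 0.5-fold of control, or 1 of 23 genes with 5 of 7 gate genes, beside 2.28% over all genes.

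Further lists of endothelial function are given beside the shares over all genes. These were 7.42% higher and 2.28% lower at 1 day p.i., and 7.43% higher and 5.94% lower at 7 days p.i. Of the pan-endothelial and junction genes 1 of 24 (Mcam) was at most 0.5-fold of control at 1 day p.i., with a median of 0.835, and 1 of 10 (Pecam1) was at least 2-fold higher at 7 days p.i., with a median of 1.09. Without mitochondrial genes or with centred ratios, none of the 10 was at least 2-fold higher, with medians of 0.872 and 0.967. The junction cadherin gene Cdh5 stood at 276, 210 and 304 CPM. Of the genes of VEGF, Notch, BMP and shear-stress signalling, Esm1 alone of 22 passed a limit at 1 day p.i., with a median of 0.748, and none of 4 did so at 7 days p.i. The VEGF receptor gene Flt1 stood at 593, 423 and 547 CPM and the flow-induced transcription factor gene Klf2 at 213, 201 and 274 CPM. Of endocytosis and lysosome genes 1 of 22 (Cd63) was at most 0.5-fold at 1 day p.i., with a median of 0.903, and 1 of 12 (Stab1) at 7 days p.i., with a median of 1.34, or 2 of 12 with a median of 1.08 without mitochondrial genes. Ctsl, the gene of cathepsin L, stood at 1817, 1135 and 2493 CPM. Of adhesion and inflammatory genes, Cxcl9, Saa3, Socs3 and Il1r1 were at most 0.5-fold and Ccl5 and Ccl24 at least 2-fold of control at 1 day p.i., among 18. With 5 of 7 gate genes, 1 of 10 was lower and 1 higher. Only 3 could be compared at 7 days p.i., and Nfkbia, encoding an inhibitor of NF-kappaB, stood at 417 CPM in control and 943 CPM at 7 days p.i. Without mitochondrial genes, none of the 3 was at least 2-fold higher. Ccl5 is also made by T and NK cells, whose markers took 344 and 683 CPM in these sinusoidal cells. The leukocyte adhesion gene Icam1 stood at 54.4, 61.1 and 122 CPM, on 4 UMIs at 7 days p.i.

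None of 14 class I and 13 cell division genes passed one at 1 day p.i., with medians of 0.825 and 0.699, and none of 7 and 2 did at 7 days p.i. Bnip3 among 15 low-oxygen genes was 2.36-fold of control at 1 day p.i. (1.32 to 4.49), on 15 control UMIs. Atf3 among 15 immediate early genes and the cell cycle inhibitor gene Cdkn1a among 14 survival genes were at most 0.5-fold. Of 18 antioxidant and metallothionein genes, Gclm, Prdx6, Cat, Gsta3 and Gstm1 were at least 2-fold higher at 1 day p.i., and 3 of 12 were with 5 of 7 gate genes. Gstm1 stood at 60.7 CPM in control and 216 CPM at 1 day p.i., where barcodes with fewer than 200 genes held 235 CPM. Of 32 nuclear respiratory chain genes none passed a limit at 1 day p.i., with a median of 1.04, and Ndufa4 alone of 14 did at 7 days p.i. Of 10 endothelial growth factor and angiocrine genes none passed a limit at 1 day p.i., with a median of 0.796. F2r alone of 9 coagulation genes was at most 0.5-fold, with a median of 0.769, and none of 7 was with 5 of 7 gate genes. Of 14 lipid genes, Hmgcs1 and Insig1, both of sterol synthesis and its control, were at least 2-fold higher at 1 day p.i., with a median of 1.04, and none of 8 was with 5 of 7 gate genes. Hmgcs1 stood at 19.0 and 98.2 CPM, and at 120 CPM in the barcodes with fewer than 200 genes at 1 day p.i.

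**Figure D5:**
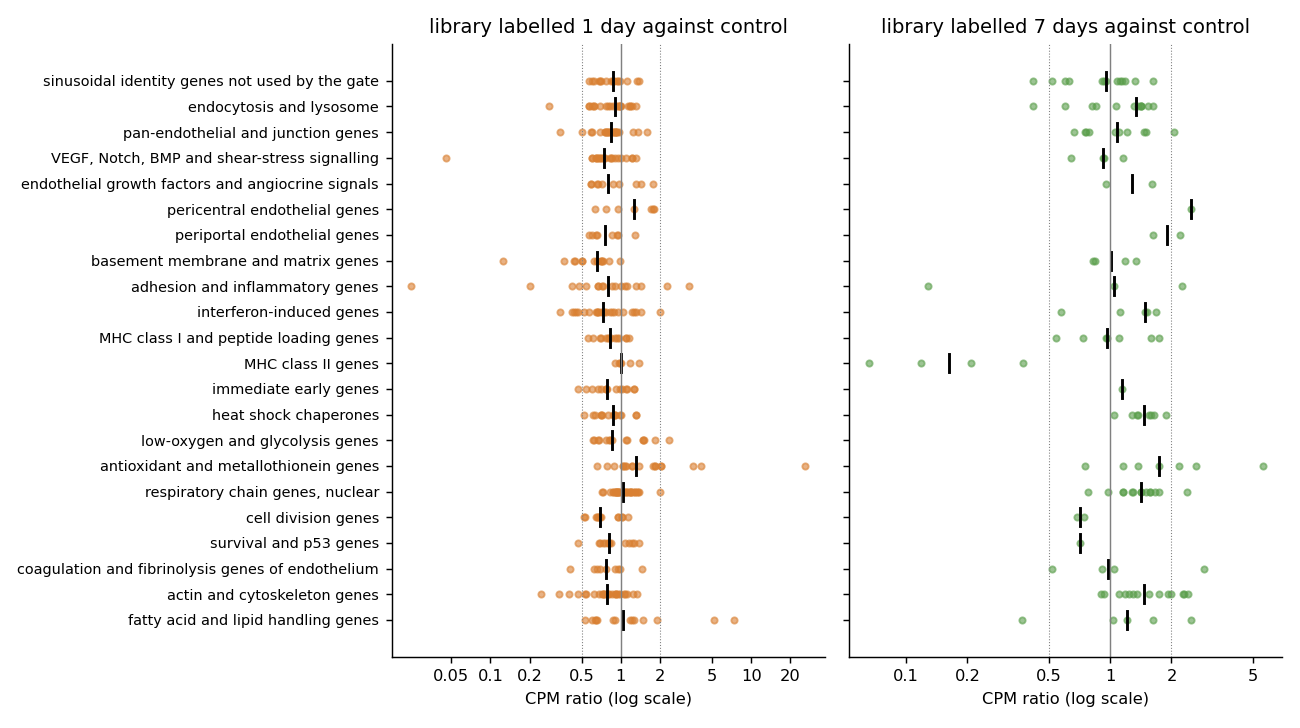
Ratio of CPM to control (log scale) for each comparable gene (points) of each list, with the list's median (black bar), at 1 day p.i. (left) and 7 days p.i. (right). The matrix genes lie under 1 at 1 day p.i. and the 4 class II genes lie at 0.0657 to 0.373 after 7 days.

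Among genes of the zones of the sinusoid, most periportal genes had ratios under 1 at 1 day p.i., and pericentral genes went both ways. The median over all genes was 0.990, and those of the sinusoidal identity and junction lists were 0.866 and 0.835. Summed over the list, pericentral genes took 1527 CPM in control and 1273 CPM at 1 day p.i. Periportal genes took 2083 and 1660 CPM, so that both sums were lower at 1 day p.i. Of 7 comparable pericentral genes, 4 had ratios over 1 at 1 day p.i., with a median of 1.26, and Wnt2, Cdh13 and Gja4 had the highest, at 1.71 to 1.81. Fabp4 had the lowest, at 0.636. Of 8 comparable periportal genes, 1 had a ratio over 1 (Ltbp4, at 1.28), with a median of 0.760, and Ntn4, encoding a guidance protein of the basement membrane, had the lowest, at 0.570. With 5 of 7 gate genes the medians were 1.22 and 0.976. At 7 days p.i. 1 pericentral gene (Fabp4) and 2 periportal genes could be compared. Thinned to 300 UMIs, 33.0%, 29.9% and 73.5% of cells held a pericentral UMI in control, at 1 day and at 7 days p.i. For a periportal UMI these shares were 47.1%, 38.4% and 57.1%. Fabp4 had 85 of the 109 pericentral UMIs at 7 days p.i. Cells with a UMI of Wnt2 and of the periportal gene Msr1 numbered 2 in control, where the product of the shares gives 9.26, and 17 at 1 day p.i., against 22.1. Wnt2 and the receptor gene Kit, both pericentral, were found together in 10 control cells, against 2.68 by the product, and in 7 cells at 1 day p.i., against 5.81. The counts are small, and low-gene barcodes at 1 day p.i. held 44.8 CPM of Wnt2, against 8.92 CPM in control. Over the whole lists, 390 control cells held a UMI from both zones where the product gives 397, so that detection of any 1 gene did not divide the cells into zones.

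Levels were spread over many cells for sinusoidal genes. In control, Clec4g had 1770 UMIs in 898 cells with at most 9 in a cell, Igfbp7 had 1790 in 830 cells and Cxcl9 had 942 in 476 cells with at most 22 in a cell. Cxcl9 and Iigp1 were found together in 204 control cells, where the product of their shares gives 166, and in 85 cells after thinning, where it gives 65.5. Cxcl9 and Esm1 were found together in 66 control cells, against 39.6 by the product, and in 26 cells after thinning, against 13.1. Cxcl9 and Msr1 also lay above the product, with 107 control cells against 91.9.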

How the data were processed

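The authors aligned reads with STAR (version 2.5.2a in the submitters' processing notes, which also name hg19 although the cells are from mouse, so no coordinates were taken from the files), built expression matrices with the Drop-seq tools (per the file headers, reads on the sense strand with nearby UMIs merged) and deposited UMI counts, not normalized, in 3 files of 19091 genes. Depth was 10032574 UMIs over 15704 barcodes in control, 8563287 over 18161 at 1 day p.i. and 4580021 over 12466 at 7 days p.i.

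Groups were taken from the labels. The cells, gene lists and alternatives were chosen with earlier results of these data known. Doublets were kept, and an alternative left out cells with 2 markers of a further class. Sums per library were made with Python 3.11.15, numpy 2.4.6 and scipy 1.17.1. Sums have exact Poisson intervals, shares Clopper-Pearson intervals and ratios conditional binomial intervals. The floor was 3 counts per library. Cells were thinned to 300 UMIs with seed 1, which left out 18, 75 and 8 sinusoidal cells and 1, 5 and 19 lymphocytes; the thinned lymphocytes held fewer than 3 gate genes in the deposited counts. Genes were compared with at least 50 UMIs and at least 10 expected in the smaller library. Named were the 10 genes in each direction whose interval's nearer bound was farthest from 1, without gate, mitochondrial, ribosomal, clone-named and other-class marker genes, members of fixed lists past a limit, and 20 per direction among genes at least 2-fold above barcodes with fewer than 200 genes in the library where they were higher, a criterion added after the data had been seen. Each alternative changed 1 choice. The computation of ratios and intervals was run on simulated counts with independent Poisson error. Such counts hold no clustering of UMIs in cells and no difference between livers, so that the run checked the computation alone. A few genes that the rule named are not reported here.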

Additional observations from a re-analysis of the deposited data

Results flagged for a closer look

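Barcodes with fewer than 200 genes, which were not counted as cells in the main selection, carried the 7 gate genes at 4361 CPM in the library at 1 day p.i., above the 1380 CPM of control. In the same library 992 cells with at least 3 of the 7 sinusoidal genes were left out because they also held at least 2 Kupffer cell genes, against 106 in control. Both values were looked at because they lie outside the main measurement and above control.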

How the results depend on the processing

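No paired analysis was possible because each condition was 1 library. The order of the shares (1 day p.i., control, 7 days p.i.) held under all alternatives run. In the order control, 1 day and 7 days p.i., the shares were 8.94%, 15.5% and 0.559% with at least 100 detected genes, 7.66%, 13.2% and 0.569% with 4 of 7 gate genes, 16.0%, 37.6% and 2.31% with 2 of 7, and 4.14%, 6.41% and 0.356% with 5 of 7, an alternative added after seeing the data. They were 6.96%, 15.5% and 0.630% when cells were thinned to 300 UMIs before selection. Removing cells with 2 markers of another class left 3690, 213 and 178 cells of any type, on which the shares were 21.9%, 30.0% and 4.49%. For control and 1 day p.i., they were 7.94% and 11% with none of the 8 Kupffer and large-vessel genes, 12.3% and 34.1% without a limit on them, and 8.40% and 21.6% with at most 20% mitochondrial UMIs. With at least 300 genes the share at 1 day p.i. was 26.6%. The genes at least 2-fold higher at 1 day p.i. numbered 237 with 4 of 7 gate genes, 139 with 5 of 7, 178 with none of the 8 genes, 184 with the mitochondrial limit, 193 in thinned cells, 188 with at least 100 UMIs, 947 with at least 20 and 7 with other classes removed. Those at most 0.5-fold numbered 59 with 5 of 7, 62 with at least 100 UMIs, 312 with at least 20 and 16 with other classes removed. At 7 days p.i. the higher and lower genes numbered 16 and 15 with 4 of 7, 7 and 12 with 5 of 7, 12 and 40 without mitochondrial genes, 7 and 15 in thinned cells, 10 and 11 with at least 100 UMIs, 1070 and 1211 with at least 20, and 0 and 3 with other classes removed. With none of the 8 genes, 14 were higher. Removing other classes left 808, 64 and 8 sinusoidal cells. Under it the ratio of Bcl6b at 1 day p.i. was 1.47 and that of Pcdh17 at 7 days p.i. 1.71, and the ratios at 7 days p.i. of Ehd3, Mrc1, Ppap2b, Sdpr and Sepp1 rose above 1 and those of Hsp90ab1 and Psma7 came below it, as did that of Pdlim1 at 1 day p.i. With 5 of 7 gate genes, the ratios at 7 days p.i. of Anxa2, Pdia3, Sepp1 and Tcf4 were 0.893, 0.868, 1.20 and 1.07. In thinned cells those of Pdia3 and Psma7 were 0.976 and 0.921, and with 4 of 7 gate genes that of Sepp1 was 1.09. Stricter selections and minimums tested fewer cells or genes; other causes were not tested. Of 85 alternative values of the shares and of the numbers of genes past the fold, 52 were classed as moved from the main value and 33 as the same. Of 527 values of named genes at 1 day p.i. 469 moved by less than their counting error, as did 526 of 588 at 7 days p.i.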

Other observations

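Among markers of other classes in the sinusoidal cells, erythroid genes took 474 CPM in control, 334 CPM at 1 day p.i. and 0 after 7 days, against 190, 92.0 and 99.3 CPM in barcodes with fewer than 200 genes. Macrophage genes took 2715, 2448 and 1186 CPM, each below those barcodes at 3467, 3824 and 4173 CPM. B cell genes took 164, 360 and 0 CPM. Genes of cholangiocytes and mesothelium took 41.7, 138 and 213 CPM, the last on 7 UMIs. Large-vessel and lymphatic genes took 1228, 1650 and 2949 CPM, against 600, 1149 and 1662 CPM in those barcodes, and at 7 days p.i. 8 of these 14 genes were at 0.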
